A study of Drosophila melanogaster with 8 samples.

Results

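The cytosolic ribosomal protein genes of Drosophila melanogaster were followed across 8 eye disc libraries from 4 fly stocks. A gene belonged to the family if its FlyBase identifier mapped to a symbol beginning with RpL, RpS or RpLP and a digit, or to sta or sop, and genes of the mitochondrial ribosome (mRp) were left out. The rule took 88 of the 15682 genes in the count tables, 51 of the large and 37 of the small ribosomal subunit. RpS10b, RpL27A, RpL31, RpL19 and RpS12 fit the rule by symbol, but the tables used here do not carry their current identifiers, and they were not analysed here. The gene called sop (string of pearls) appears under its present symbol RpS2.

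Each cytosolic ribosome carries a single copy of most of these proteins, and their genes are among the most highly transcribed in growing tissue, under coordinated control of transcription and translation. In flies, losing a single copy of many of them gives the Minute phenotype of slow growth and short bristles, and in imaginal discs such cells are lost when they compete with unaffected neighbours. Some members exist as duplicate copies, several of which are known in flies as germline-enriched, and many carry small nucleolar RNA (snoRNA) genes in their introns.

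The samples were pools of 30 to 50 eye discs from third-instar larvae cultured at 25 °C, with 2 biological replicates of each stock. Canton S is the wild-type stock. The stock labelled mir-11 KO(w-) lacks the microRNA gene mir-11, which lies with mir-998 inside the E2f1 gene, and carries w- (a mutant white eye-colour gene) by its label. The stocks RMCE-1 and RMCE-2, both labelled as mir-11~998 alleles, carry alleles made by RMCE, the usual abbreviation for recombinase-mediated cassette exchange, and the labels do not say what each cassette holds or how RMCE-1 and RMCE-2 differ. The series is described as a comparison of wild-type with unchecked miR-998 expression. Sexes of the larvae and genetic background beyond these names were not given in the sources used here, so differences from Canton S cannot be told apart from background differences between stocks.

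The libraries held 11929158 to 19670470 counted reads, made from total RNA depleted of ribosomal RNA. mir-11 had 2 reads in Canton S replicate 1, 1 read in RMCE-2 replicate 2 and 0 in the other 6 libraries, too few to check the knockout label. Reads of w numbered 885 and 643 in the Canton S libraries and 8 to 66 in the other 6. All 10 eye disc markers with an identifier (ey, eya, so, dac, gl, elav, ato, sev, boss and lz) had reads in every library. Canton S replicate 1 stood apart in markers of other tissues. Its testis marker sum was 44.6 counts per 1000000 reads (CPM), against 2.83 to 4.45 CPM in the other 7, and its gut marker sum was 387 CPM, against 0.128 to 2.25 CPM. RMCE-1 replicate 2 had the highest sum of fat body markers, 7411 CPM, where the others had 47.9 to 1849 CPM. Its salivary gland marker sum, 4083 CPM, was also the highest.

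Ribosomal protein genes took 7.18% to 8.01% of all counted reads in each library. Their share was 7.37% and 7.496% in the Canton S replicates, 8.01% and 7.88% in mir-11 KO, 7.69% and 7.39% in RMCE-1, then 7.18% and 7.65% in RMCE-2. The mir-11 KO libraries were the highest, and the other 3 stocks overlapped. Scaled between libraries by TMM, an edgeR factor that assumes most genes do not change, the summed level was 74354 ± 4004 CPM in Canton S (SD, n = 2, as for every ± here) and 78140 ± 278 CPM in mir-11 KO. It was 77396 ± 2533 CPM in RMCE-1, the stock next in order, while RMCE-2 had 73710 ± 2235 CPM. The order of the libraries thus depended on the scaling: with TMM the highest library was RMCE-1 replicate 1, at 79186 CPM. The ratio of large- to small-subunit reads stayed between 1.26 and 1.30 in the 8 libraries. In whole discs, fewer cells of a type and less RNA per cell cannot be told apart.

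Of the 88 genes, 80 had a mean of at least 5 CPM, and 8 were below it. Counted per kilobase of exon, so that genes of different length can be compared, the 80 ran from 33.6 to 7653 CPM per kb with a median of 1051. RpL41, whose product is the smallest ribosomal protein, was highest at 7653 CPM per kb. RpL39, a small protein of the large subunit's exit tunnel, followed at 3296 CPM per kb. RpS27A, made as a fusion with ubiquitin, stood at 2678 CPM per kb and RpL23 at 1927. RpL41 and RpL39 are also short genes, with 320 and 288 bp of exon.

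At the low end of the 80 lay genes named for a likeness to a ribosomal protein. RpL7-like had 33.6, RpLP0-like 43.2 and RpL24-like 125 CPM per kb. Their yeast counterparts are known as assembly factors of the large subunit rather than as parts of the finished ribosome, so the symbol rule takes in a few genes of another role. RpL22 (117 CPM per kb), RpL23A (139), RpL34a (197) and RpS15Ab (208) were also low. The reads of RpL22 and RpL23A are uncertain, since exons of each overlap another gene on the same strand (lncRNA:CR42491 and Uhg7), as do those of RpL7-like, RpS27A, RpS28-like and RpS6. Exons of 23 members overlap a gene on the opposite strand, and whether the counting used strand was not given in the sources used here.

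The 8 genes below 5 CPM were all duplicate or like copies. RpS19b averaged 2.44, RpS5b 1.70 and RpL22-like 0.929 CPM per kb. RpS28-like had 0.571, RpS10a 0.357, RpL10Aa 0.134, RpS28a 0.127 and RpL37-2 0.0877 CPM per kb. The last 5 fell under the filter on low counts and were not tested, which left 83 members tested among 11068 genes.

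**Figure D1:**
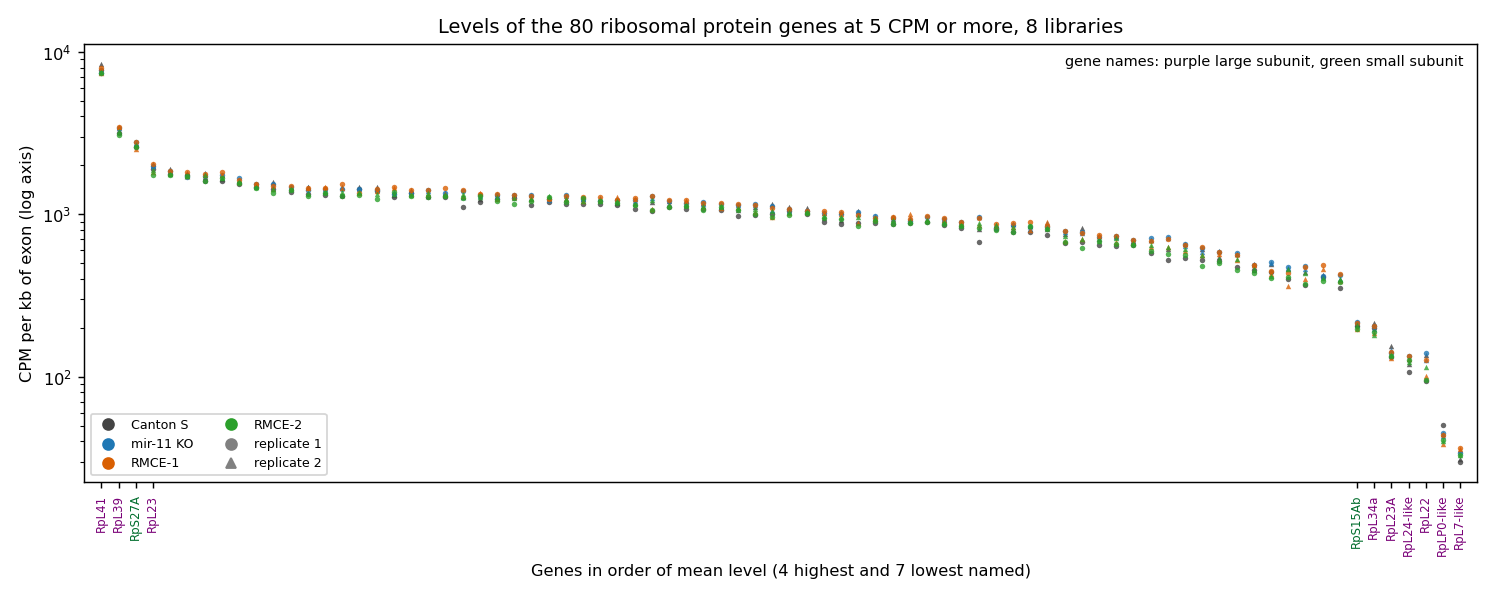
Levels in CPM per kilobase of exon (log axis) of the 80 ribosomal protein genes at 5 CPM or more, ordered by mean level with the 4 highest and 7 lowest named, and 1 point per library; colour marks the stock and shape the replicate. RpL41 stands at 7653 CPM per kb on average, most genes lie close to the median of 1051, and the points of a gene nearly coincide.

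Across libraries the family was even. In all 80 genes at or above 5 CPM, the highest library was less than 1.5-fold above the lowest. The median of that ratio was 1.15, compared with 1.24 in the 1847 other genes at 100 CPM or more, of which 84.6% stayed under 1.5-fold. At the same cut of 100 CPM, the 77 members above it had a median of 1.14. The 2 sets were not matched for level, and counting error widens the ratio at lower levels. RpS18 was the steadiest, at 1.06-fold. RpL22 spread most, at 1.48-fold, followed by RpL8 (1.42), RpL4 (1.38), RpL35A (1.34) and RpL34b (1.31).

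The small differences that remained tended to run through the family together within a library. Each gene's log2 CPM was set against its own mean over the 8 libraries. The median of these deviations over the 80 genes was -0.08 in Canton S replicate 1 and 0.02 in replicate 2. It was 0.05 and 0.04 in the mir-11 KO replicates, 0.06 and -0.01 in RMCE-1, then -0.06 and -0.01 in RMCE-2. Replicates of 1 stock could thus differ as much as stocks did. Between the Canton S replicates, 79 of the 80 genes were lower in replicate 1, by a median of 0.10 on the log2 scale. Canton S replicate 1 also had the highest testis and gut marker sums of the 8 libraries. In RMCE-1, 70 of the 80 were higher in replicate 1, by a median of 0.06, and in RMCE-2 73 were lower in replicate 1, by a median of 0.05. In mir-11 KO the replicates split 46 to 34, with a median difference of 0.01. The part that the other-tissue transcripts play in these shifts was not tested.

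**Figure D2:**
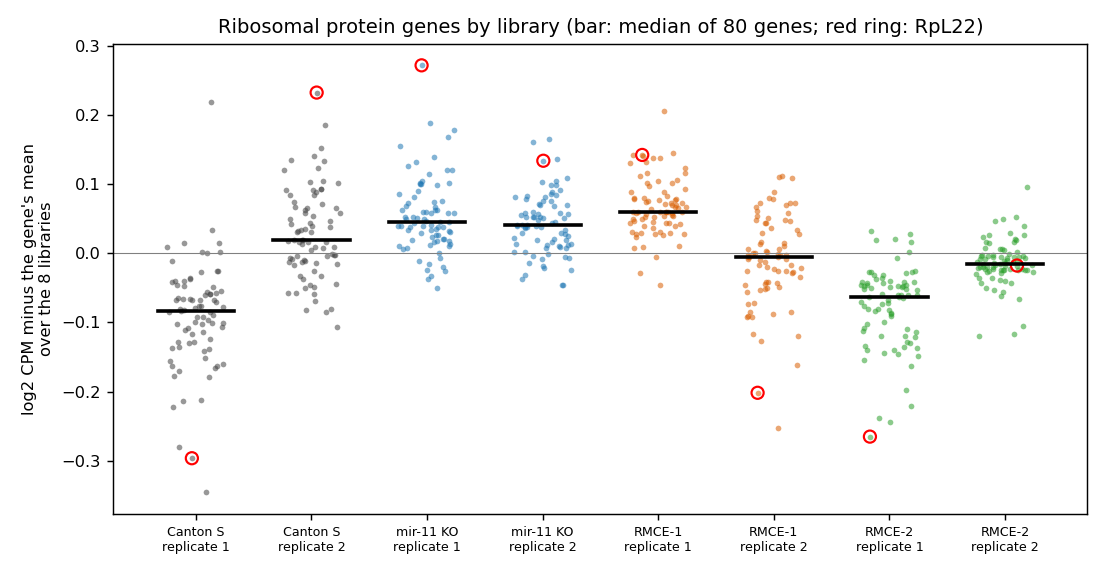
Log2 CPM of each of 80 ribosomal protein genes minus its own mean over the 8 libraries, by library; each point is a gene, the bar marks the median and the red ring RpL22. The medians run from -0.08 in Canton S replicate 1 to 0.06 in RMCE-1 replicate 1, and RpL22 lies near an edge in several libraries.

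Genes were tested between each pair of stocks with edgeR's quasi-likelihood test on the raw counts of all 11068 genes, and a gene was called at a Benjamini-Hochberg adjusted p under 0.05. Because the 3 comparisons with Canton S share its 2 libraries, they are not independent of each other.

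Between mir-11 KO and Canton S, no ribosomal protein gene was called, where 4.75% of all genes tested were. At an unadjusted p under 0.05 there were 10 of 83, against 20.9% of all genes, and DESeq2 called 2 (RpL4 and RpL8, both higher in mir-11 KO), against 7.08% of the genes it gave an adjusted p. The median log2 fold change of the 83 members was 0.07 and that of all genes 0.01, and 67 of 83 members had a positive value against 5705 of 11068 genes. This median depended on both Canton S libraries: without replicate 1 it was 0.01, and without replicate 2 it was 0.12.

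Between RMCE-1 and Canton S, 1 of the 83 members was called, against 6.06% of all genes. This was RpL22-like, lower in RMCE-1 (as were 3.22% of all genes) and described with the duplicate copies. At an unadjusted p under 0.05 there were 15, against 23.2% of all genes, and DESeq2 also called 1, which was RpL7A instead, against 7.99%. The median of the 83 was 0.06, that of all genes 0.01. Leaving out Canton S replicate 1 took the members' median to -0.004 and leaving out replicate 2 took it to 0.12.

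Between RMCE-2 and Canton S, no member was called by edgeR or by DESeq2, where edgeR called 3.6% of all genes and DESeq2 5.83%. Unadjusted p was under 0.05 in 4 of 83 members and in 19.4% of all genes. The median of the 83 was -0.01 and that of all genes 0.00. It was -0.06 without Canton S replicate 1 and 0.05 without replicate 2.

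Among mir-11 KO, RMCE-1 and RMCE-2, edgeR called no member in any pair. Between RMCE-1 and mir-11 KO, 2 of 83 had an unadjusted p under 0.05, against 9.03% of all genes, and the members' median log2 fold change was -0.01. edgeR called 0.352% of all genes in this pair, and DESeq2 called no member and 1.32% of genes. Between RMCE-2 and mir-11 KO, 5 of 83 had an unadjusted p under 0.05, against 13.2% of all genes. Here edgeR called 0.578% of all genes, and DESeq2 called no member and 2.34% of genes. The members' median was -0.08 against -0.00 for all genes, and 75 of 83 were negative, against 5603 of 11068 genes. Without RMCE-2 replicate 1 the median was -0.05, the nearest to 0 on leaving out 1 library. Between RMCE-2 and RMCE-1, 5 of 83 had an unadjusted p under 0.05, against 16.0% of all genes, and edgeR called 1.68% of all genes. Of the 83 members 78 were negative, against 5799 of 11068 genes. The members' median was -0.07, against -0.01 for all genes. It was -0.03 without RMCE-1 replicate 1, -0.04 without RMCE-2 replicate 1 and -0.10 without replicate 2 of either stock. Scaled by library totals alone the members' median was -0.02 and that of all genes 0.03. DESeq2 called RpL28 (lower in RMCE-2) and 3.89% of all genes. A test for any difference among the 4 stocks called no member, against 5.48% of genes, and gave an unadjusted p under 0.05 for 10 of 83, against 23.6%. DESeq2 called 1 member in the same test (RpL28), against 11.0% of genes.

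Marker sums of blood cells, muscle, salivary gland and female germline lay lower in both RMCE-2 libraries than in both mir-11 KO libraries. The eye disc sum did so narrowly, at 1228 and 1250 CPM in RMCE-2 against 1251 CPM in each mir-11 KO library. The fat body sum went the other way, at 409 and 1849 CPM in RMCE-2 against 186 and 74.7 CPM in mir-11 KO. The testis, gut and antennal disc sums of these stocks overlapped. Of 5 antennal disc markers edgeR called 1 in this pair (dan, lower in RMCE-2), against 0.578% of all genes. The 6 hemocyte (blood cell) markers, none at 0 in any library, summed to 221 to 231 CPM in RMCE-2, 337 to 413 in mir-11 KO, 361 to 413 in RMCE-1 and 442 to 662 in Canton S. Against Canton S, 5 were negative and 1 positive in each of the other stocks. In mir-11 KO the positive marker was NimC1, at 9.83 CPM against 3.49 in Canton S (log2 fold change 1.49, edgeR adjusted p = 0.0332). In RMCE-2 against mir-11 KO all 6 had negative values, with a median of -0.65. Here edgeR called none, against 0.578% of all genes, while DESeq2 called 3, against 2.34%. The 4 muscle markers, also never at 0, summed to 2203 to 3423 CPM in RMCE-2 and to 3709 to 3749 CPM in mir-11 KO. All 4 were negative in that pair, with a median of -0.41. None was called by either tool, and 1 had an unadjusted p under 0.05, against 13.2% of all genes. The part of these cells in the members' medians was not tested.

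The libraries of the stocks compared did not overlap in 71 of 83 members between RMCE-2 and mir-11 KO, where this held for 50.3% of all genes, and in 47 of 83 between RMCE-2 and RMCE-1, where it held for 41.8%. Against Canton S the count was 45 of 83 in mir-11 KO (59.3% of all genes), 32 in RMCE-1 (51.7%) and 23 in RMCE-2 (51.4%). Between RMCE-1 and mir-11 KO it was 28 (39.5%). With 2 libraries a stock, non-overlap is a weak mark, and none of these differences other than that of RpL22-like was called.

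By the 95% intervals of the fit, the size of difference left room for was small. These intervals rest on 2 libraries per stock, and the fit gave too many false calls on simulated data in most pairs. They may thus be too narrow. With TMM scaling, they also do not bound a shift shared by most genes. The median standard error of a member's log2 fold change was 0.06 in each pair, and the median 95% interval reached 0.15 to either side. In all 6 pairs the 95% interval of each of the 80 genes at or above 5 CPM lay within ±1. It lay within ±0.5 for 76 of 80 in mir-11 KO against Canton S, and for 78 or 79 of 80 in the other 5 pairs. No member at that level had a log2 fold change beyond ±0.4 in any pair. Large- and small-subunit genes gave near values, with medians of 0.09 and 0.06 in mir-11 KO against Canton S and of -0.08 and -0.06 in RMCE-2 against RMCE-1, and the difference between the subunits was not tested.

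**Figure D3:**
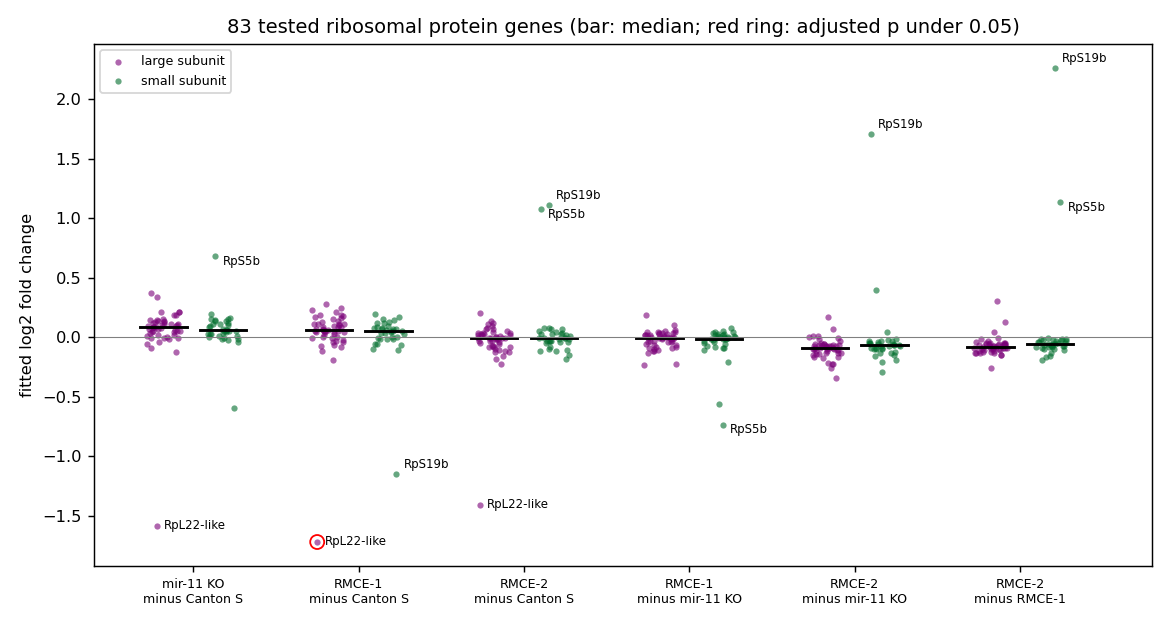
Fitted log2 fold change of the 83 tested ribosomal protein genes in each of the 6 pairs of stocks (first stock minus second), by subunit; points are genes, bars medians, and the red ring marks the single call, RpL22-like at -1.72 in RMCE-1 minus Canton S. RpL22-like, RpS19b and RpS5b, all under 5 CPM, lie away from 0 in several pairs, and the 80 others lie within 0.4 of 0.

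RpL8, a core protein at the peptidyl transferase centre, was the member furthest above Canton S among the well-expressed genes of all 3 other stocks. Its level was 793 and 950 CPM in the Canton S replicates, 1122 and 1127 in mir-11 KO, 1109 and 1007 in RMCE-1, then 965 and 1036 in RMCE-2. All 6 other libraries exceeded both Canton S libraries, although RMCE-2 replicate 1 did so narrowly. In mir-11 KO the log2 fold change was 0.37 (SE 0.10, adjusted p = 0.0844), short of the threshold. It was 0.23 without Canton S replicate 1 and 0.50 without Canton S replicate 2, and past the threshold in the latter fit. In RMCE-1 it was 0.28 (SE 0.10, adjusted p = 0.146) and in RMCE-2 0.20 (SE 0.10, adjusted p = 0.315). These were 0.15 and 0.07 without Canton S replicate 1 and came to 0.42 and 0.34 without replicate 2.

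RpL4, which lines the exit tunnel, had 729 and 858 CPM in Canton S, against 1010 and 993 CPM in mir-11 KO. The groups did not overlap, and the log2 fold change of 0.34 (SE 0.10, adjusted p = 0.105) was not called. RMCE-1 had 980 and 878 CPM and RMCE-2 had 801 and 875 CPM, the latter overlapping Canton S. Without Canton S replicate 1 the log2 fold change was 0.21, and without Canton S replicate 2 it was 0.46.

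RpL28, a large-subunit protein whose gene spans 5 snoRNA genes, differed between the RMCE stocks. It stood at 676 and 632 CPM in RMCE-1, at 534 and 560 CPM in RMCE-2, at 578 and 568 CPM in mir-11 KO and at 570 and 583 CPM in Canton S. RMCE-1 was above all 6 other libraries. The log2 fold change from RMCE-1 to RMCE-2 was -0.26 (SE 0.06, adjusted p = 0.0908), and from mir-11 KO to RMCE-1 it was 0.19 (SE 0.06, adjusted p = 0.392). Neither was called by edgeR.

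RpL22 was the gene with the widest spread over libraries, and its replicates also stood far apart. Its values were 103 and 149 CPM in Canton S, 153 and 139 in mir-11 KO, 140 and 110 in RMCE-1, then 106 and 125 in RMCE-2. RMCE-2 lay below mir-11 KO in both libraries, with a log2 fold change of -0.34 (SE 0.20, adjusted p = 0.531), and the wide error left it uncalled. In RMCE-1 against mir-11 KO it was -0.22 (SE 0.20, adjusted p = 0.794), with overlapping libraries. On leaving out 1 library the first ran from -0.45 without RMCE-2 replicate 2 to -0.22 without RMCE-2 replicate 1. The second ran from -0.40 without RMCE-1 replicate 1 to -0.06 without RMCE-1 replicate 2, and was -0.14 without mir-11 KO replicate 1.

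RpL24, which bridges the subunits, had 598 and 588 CPM in mir-11 KO and 549 and 458 CPM in RMCE-1, a log2 fold change of -0.24 (SE 0.11, adjusted p = 0.581). Its levels were 507 and 582 CPM in Canton S, against 517 and 583 CPM in RMCE-2, which overlapped each other. RMCE-1 replicate 2 was the lowest of the 8 libraries. The fold change of RMCE-1 against Canton S was -0.11 (SE 0.11, adjusted p = 0.567), and that of RMCE-2 against RMCE-1 was 0.13 (SE 0.11, adjusted p = 0.640). Without RMCE-1 replicate 2 the values against mir-11 KO, against Canton S and of RMCE-2 against RMCE-1 were -0.11, 0.01 and 0.01, and without RMCE-1 replicate 1 they were -0.36, -0.24 and 0.26. Leaving out either Canton S library took the Canton S value to -0.21 or -0.01, and leaving out either RMCE-2 library took the last to 0.21 or 0.04.

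RpL40, like RpS27A a fusion with ubiquitin, had 966 and 950 CPM in RMCE-1 against 879 and 903 CPM in mir-11 KO. In RMCE-1 against mir-11 KO this gave a log2 fold change of 0.10 (SE 0.05, adjusted p = 0.615). In Canton S it stood at 842 and 863 CPM, the lowest of the stocks, and in RMCE-2 at 909 and 882 CPM. RpL41 was the member furthest below Canton S in mir-11 KO among these genes, with 2472 and 2698 CPM in Canton S against 2363 and 2393 CPM, a log2 fold change of -0.12 (SE 0.07, adjusted p = 0.344) that was -0.20 without Canton S replicate 1 and -0.06 without replicate 2. RpL35A had 420 and 513 CPM in Canton S, against 382 and 438 CPM in RMCE-2, and at -0.19 (SE 0.11, adjusted p = 0.404) its stocks overlapped. That value was -0.33 without Canton S replicate 1, -0.03 without Canton S replicate 2 and -0.09 without RMCE-2 replicate 1. Among the 80 genes at 5 CPM or more, RpL9 was the furthest above mir-11 KO in RMCE-2. Its log2 fold change was only 0.07 (SE 0.06, adjusted p = 0.646), with 1170 and 1185 CPM against 1132 and 1115. Over all 83 tested members the highest value in this pair was 1.70, in a small-subunit gene below 5 CPM.

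In the small subunit, RpS14b was the lowest member of RMCE-2 against mir-11 KO. RpS14a and RpS14b are adjacent copies on the X chromosome that encode the same platform protein, and reads may be split between them. RpS14b had 264 and 295 CPM in Canton S, 305 and 298 in mir-11 KO, 266 and 256 in RMCE-1, then 243 and 249 in RMCE-2. Both RMCE stocks lay below mir-11 KO, by -0.29 in RMCE-2 (SE 0.07, adjusted p = 0.151) and by -0.21 in RMCE-1 (SE 0.07, adjusted p = 0.431). RpS14a stood at 681 and 747 CPM in Canton S, 733 and 706 in mir-11 KO, 785 and 705 in RMCE-1, then 739 and 745 in RMCE-2, a log2 fold change of 0.04 (SE 0.07, adjusted p = 0.837) between RMCE-2 and mir-11 KO. The RpS14b share of the pair's reads was 27.9% and 28.3% in Canton S, 29.4% and 29.7% in mir-11 KO, 25.3% and 26.6% in RMCE-1, then 24.8% and 25.1% in RMCE-2. It was higher in both mir-11 KO libraries than in any other, and the difference in share was not tested.

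RpS21 had 530 and 475 CPM in RMCE-1, against 406 and 474 CPM in RMCE-2, a log2 fold change of -0.19 (SE 0.11, adjusted p = 0.459). It was -0.12 without RMCE-1 replicate 1, -0.08 without RMCE-2 replicate 1 and -0.30 without RMCE-2 replicate 2. sta, the fly gene stubarista for the protein also known as the laminin receptor, stood at 1405 and 1584 CPM in Canton S, 1733 and 1685 in mir-11 KO, 1724 and 1441 in RMCE-1, then 1428 and 1631 in RMCE-2. RpS2 had 1195 and 1342, 1400 and 1385, 1377 and 1256, and 1208 and 1300 CPM in the same order. For both genes mir-11 KO was above Canton S in each library, with log2 fold changes of 0.19 for sta (SE 0.11, adjusted p = 0.364) and 0.13 for RpS2 (SE 0.08, adjusted p = 0.385). Without Canton S replicate 1 these were 0.09 and 0.04, and without replicate 2 they were 0.28 and 0.22.

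The stalk proteins RpLP0, RpLP1 and RpLP2 recruit elongation factors to the large subunit. RpLP0 ranged from 1417 to 1570 CPM, RpLP1 from 1041 to 1206 and RpLP2 from 668 to 858. The lowest RpLP2 library was Canton S replicate 1. None of the 3 was called in any pair, where the furthest was RpLP2 in RMCE-1 against Canton S at 0.19 (SE 0.09, adjusted p = 0.268), and at 0.08 without Canton S replicate 1 or 0.30 without replicate 2. RpLP0-like, the assembly factor counterpart, had 47.6 and 41.8 CPM in Canton S, 42.7 and 41.1 in mir-11 KO, 41.6 and 36.5 in RMCE-1, then 38.6 and 38.0 in RMCE-2. It was the furthest below Canton S among the 80 genes in both RMCE stocks, at -0.19 in RMCE-1 (SE 0.09, adjusted p = 0.260) and -0.22 in RMCE-2 (SE 0.09, adjusted p = 0.243). In mir-11 KO it was -0.09 (SE 0.09, adjusted p = 0.611). Canton S replicate 1 weighed on all 3 values, which were -0.10, -0.13 and -0.01 in RMCE-1, RMCE-2 and mir-11 KO without it. In RMCE-1 the value was also -0.10 without RMCE-1 replicate 2.

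RpL7-like had the opposite placing. It measured 53.5 and 55.8 CPM in Canton S, 60.9 and 63.5 in mir-11 KO, 65.4 and 63.9 in RMCE-1, then 58.9 and 59.4 in RMCE-2. Canton S was the lowest stock with no overlap. The log2 fold change of 0.24 in RMCE-1 (SE 0.06) had an adjusted p of 0.0563. RpL24-like stood at 83.1 and 91.9 CPM in Canton S and at 94.8 to 103 CPM in the other 6 libraries, with a log2 fold change of 0.14 (SE 0.07, adjusted p = 0.332) in RMCE-2 that was 0.07 without Canton S replicate 1 and 0.22 without replicate 2.

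The duplicate copies divided into pairs where both were in use and pairs where 1 copy was nearly silent. RpL34a held 21.8% to 26.5% of the reads of its pair with RpL34b, RpS14b 24.8% to 29.7% with RpS14a, and RpS15Ab 13.9% to 15.04% with RpS15Aa. Among the assembly-factor-like genes, RpL24-like came to 13.6% to 17.8% of its reads and those of RpL24. RpL7-like came to 3.70% to 4.32% with RpL7, and RpLP0-like to 2.41% to 3.20% with RpLP0. RpL34a ranged from 112 to 133 CPM and RpL34b from 341 to 448 CPM. RpS15Ab ranged from 142 to 158 CPM and RpS15Aa from 837 to 923 CPM. In RpS15Ab the 2 Canton S libraries held the highest shares, and in RpL7-like they held the lowest. These differences in share were small and were not tested.

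In the nearly silent group, RpS5b made up 0.0400% to 0.166% of the reads of its pair with RpS5a, RpS19b 0.0615% to 0.628% with RpS19a, and RpL22-like 0.510% to 2.15% with RpL22. RpL10Aa reached at most 0.0767% with RpL10Ab, RpL37-2 0.0354% with RpL37-1 and RpS28a 0.0180% with RpS28b. RpL10Aa had 17 reads and RpL37-2 had 6, all in Canton S replicate 1, the library with the highest testis marker sum. The tissue that these reads came from was not tested. RpS28a had 3 reads in each Canton S library and 0 in the other 6. RpS10a had 0.0641 to 0.460 CPM, and its highest values were in RMCE-2 replicate 1 and Canton S replicate 1. RpS28-like had 0 to 0.686 CPM, highest in RMCE-1 replicate 2. A count of 0 still allows up to 3 reads per library, and such limits cover counting error only.

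RpL22-like was the single member that edgeR called in any pair of stocks. Its gene lies at 2R:23246610-23247893 in BDGP6.54 and encodes a paralogue of RpL22 known in flies from the germline. Its reads numbered 46 and 43 in Canton S, 15 and 12 in mir-11 KO, 12 and 7 in RMCE-1, then 9 and 18 in RMCE-2. The 2 Canton S libraries were above all 6 others, and the other 3 stocks overlapped. As levels these were 2.29 ± 0.03 CPM in Canton S, 0.758 ± 0.06 in mir-11 KO, 0.685 ± 0.12 in RMCE-1 and 0.847 ± 0.22 in RMCE-2. The log2 fold change against Canton S was -1.72 in RMCE-1 (SE 0.36, adjusted p = 0.0403), -1.58 in mir-11 KO (SE 0.35, adjusted p = 0.0520) and -1.41 in RMCE-2 (SE 0.35, adjusted p = 0.0802). The RMCE-1 call was lost in 14 of 17 alternative settings, including each fit without 1 of the 8 libraries, with adjusted p between 0.0370 and 0.255. The direction held in all 17, at -1.91 to -1.57. Testis markers summed to 44.6 and 4.25 CPM in the Canton S replicates, while RpL22-like stood at 2.27 and 2.31 CPM. The part of testis or other-tissue transcripts in the RpL22-like values was not tested.

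RpS19b, a small-subunit copy known from the germline, had 43 and 17 reads in Canton S, 22 and 14 in mir-11 KO, 7 and 11 in RMCE-1, then 31 and 75 in RMCE-2. As levels these were 2.12 and 0.914, 1.18 and 0.832, 0.449 and 0.943, and 2.38 and 4.18 CPM. RMCE-2 was the highest stock, with no overlap with the others. The log2 fold change against RMCE-1 was 2.26 (SE 0.59, adjusted p = 0.121), which was not called. RpS5b had 34 and 11, 34 and 31, 18 and 12, and 30 and 45 reads in the same order of stocks. Its RMCE-2 libraries, at 2.30 and 2.51 CPM, were the highest of the 8, and the log2 fold change against RMCE-1 was 1.13 (SE 0.48, adjusted p = 0.313). The female germline markers osk, bru1 and gcl summed to 29.7 to 39.6 CPM in the 8 libraries, and their part in these values was not tested.

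**Figure D4:**
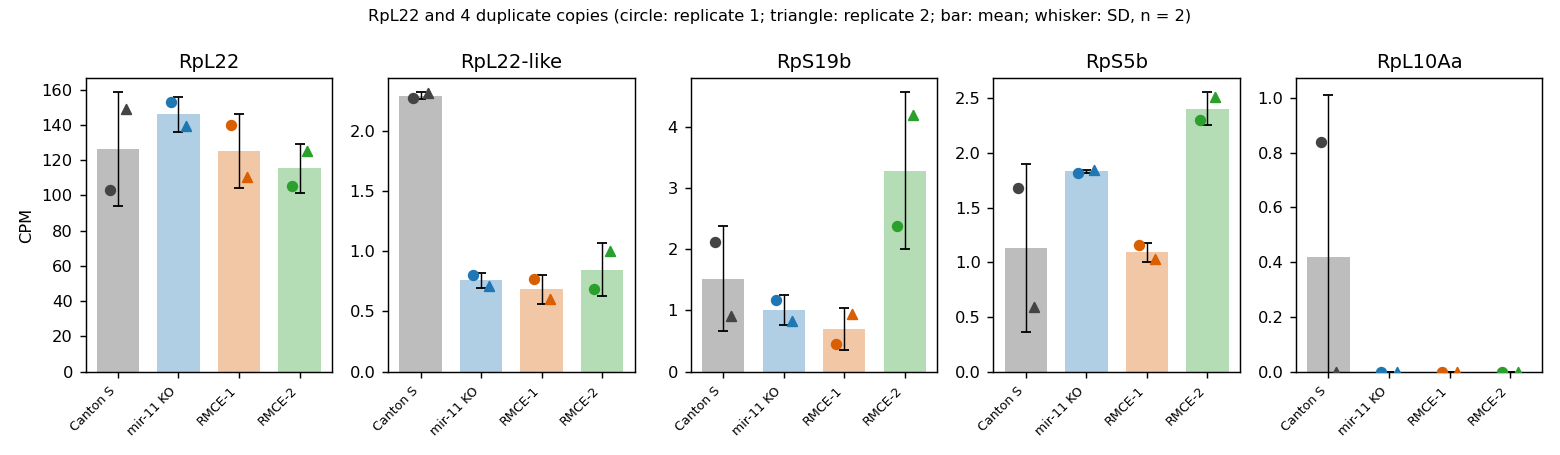
Levels in CPM of RpL22, RpL22-like, RpS19b, RpS5b and RpL10Aa by stock, on axes of different scale; bars are means, whiskers SD (n = 2), circles replicate 1 and triangles replicate 2. RpL22-like stands at 2.27 and 2.31 CPM in Canton S and at 0.600 to 1.00 CPM in the other 6 libraries, and RpL10Aa has reads in Canton S replicate 1 only.

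Within the annotated spans of 27 members lie 73 snoRNA genes, of which 71 were in the tables and 60 were tested. Place in an intron and strand were not checked, and the 27 members are called host genes here. snoRNAs of this kind guide modification of ribosomal RNA, and in flies most are cut from introns of host genes. None of the 27 host genes was called by edgeR in any pair, with 0 to 9 at an unadjusted p under 0.05 (9.03% to 23.2% of all genes), and DESeq2 called 1 in each of 3 pairs (RpL4, RpL7A and RpL28). Of the 60 snoRNA genes inside them, 7 were called in mir-11 KO against Canton S (4 higher, 3 lower), 7 in RMCE-1 against Canton S (4 higher, 3 lower) and 6 in RMCE-2 against Canton S (3 higher, 3 lower), where 4.75%, 6.06% and 3.6% of all genes were called. In mir-11 KO against RMCE-1 and against RMCE-2 1 was called, where 0.352% and 0.578% of all genes were. Between the RMCE stocks none was (0 by DESeq2 too), against 1.68% of all genes, and 10 of the 60 had an unadjusted p under 0.05, against 16.0%. Of 158 tested snoRNA genes outside the family, 14, 10 and 11 were called against Canton S.

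The clearest case lay inside RpS7, at 3R:30206447-30209020 in BDGP6.54. RpS7 itself had 1413 and 1514 CPM in Canton S, 1486 and 1467 in mir-11 KO, 1515 and 1411 in RMCE-1, then 1384 and 1452 in RMCE-2. Both mir-11 KO libraries lay above both RMCE-2 libraries, and the other pairs of stocks overlapped. Its span holds 5 copies of a snoRNA named snoRNA:Psi18S-1377a to snoRNA:Psi18S-1377e. Copy a had 1.63 and 2.69 CPM in Canton S, and 50.6 and 49.7 in mir-11 KO, 54.4 and 53.8 in RMCE-1, then 50.5 and 43.2 in RMCE-2. The log2 fold change was 4.54 in mir-11 KO (SE 0.20, adjusted p = 0.000515), 4.65 in RMCE-1 (SE 0.20, adjusted p = 0.000629) and 4.44 in RMCE-2 (SE 0.20, adjusted p = 0.000827).

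Copies b, c and e went the other way. Copy b fell from 70.1 and 87.0 CPM in Canton S to between 15.5 and 21.4 CPM in the other 6 libraries, with log2 fold changes of -2.002, -2.08 and -2.23 in mir-11 KO, RMCE-1 and RMCE-2 (adjusted p = 0.00186, 0.00153 and 0.00137). Copies c and e also fell in all 3 comparisons, by 0.97 to 1.37 on the log2 scale. Copy d, the most abundant, had 91.8 and 125 CPM in Canton S and 75.3 to 107 CPM elsewhere, and was not called. The 5 copies together came to 264 and 341 CPM in Canton S and to 177 to 232 CPM in the other 6 libraries. Copy a made up 0.618% and 0.789% of them in Canton S and 22.2% to 26.6% in the other stocks. The copies carry 1 name and reads may be shared between them, so the level of a single copy is uncertain. The calls of copies a and b held in all 17 alternative settings.

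A second case was high in mir-11 KO. snoRNA:Psi28S-2648, inside RpL36A, had 8.04 and 11.1 CPM in Canton S, 44.0 and 58.8 in mir-11 KO, 12.2 and 10.2 in RMCE-1, then 8.28 and 7.03 in RMCE-2. It was 2.42 log2 units higher in mir-11 KO than in Canton S (SE 0.21, adjusted p = 0.00321). RMCE-1 was 2.19 log2 units below mir-11 KO (log2 fold change -2.19, adjusted p = 0.0137) and RMCE-2 gave -2.75 (adjusted p = 0.00891). The first call held in all 17 alternative settings, the second was lost in 7 and the third in 4. Its host RpL36A stayed at 819 and 846, 892 and 899, 936 and 898, and 857 and 864 CPM in the 4 stocks. Inside RpS16, snoRNA:Psi28S-1175b had 27.6 and 30.5 CPM in Canton S and 41.9 to 51.8 CPM in the other 6 libraries, and was called in all 3 comparisons with Canton S.

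**Figure D5:**
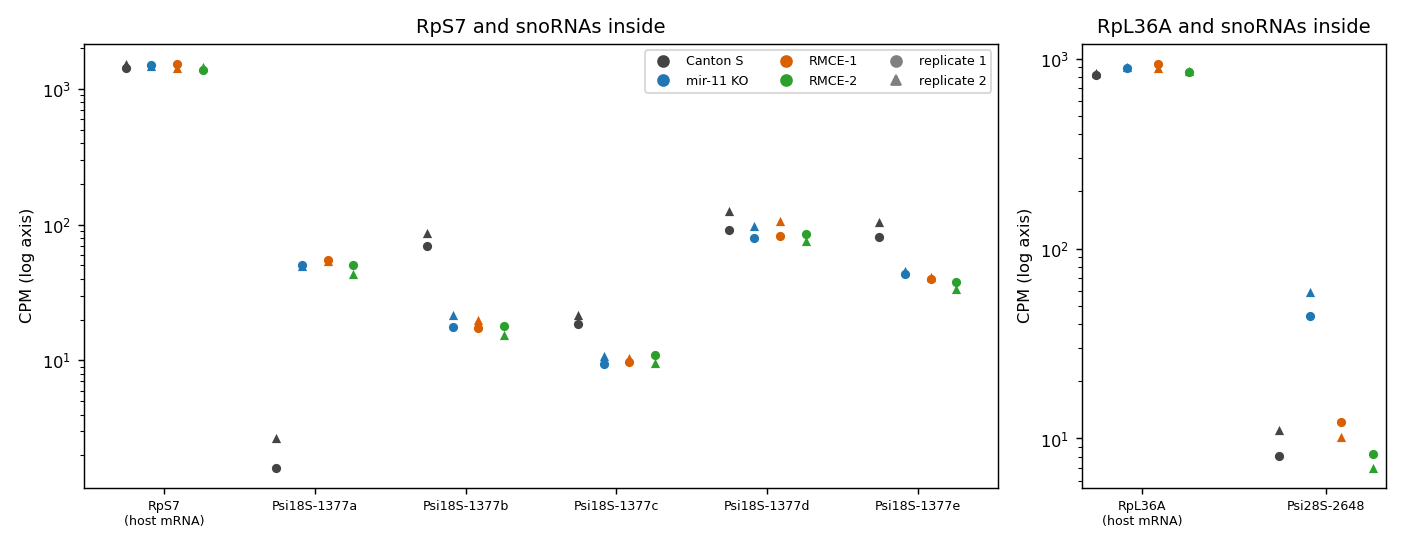
Levels in CPM (log axis) of the host genes RpS7 and RpL36A and of snoRNA genes inside them, with 1 point per library; colour marks the stock and shape the replicate. RpS7 stays at 1384 to 1515 CPM while snoRNA:Psi18S-1377a goes from 1.63 and 2.69 CPM in Canton S to 43.2 to 54.4 CPM elsewhere, and snoRNA:Psi28S-2648 is highest in mir-11 KO at 44.0 and 58.8 CPM.

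Few other genes of the translation machinery were called. For the lists that follow, edgeR called 0.352% to 6.06% of all genes over the 6 pairs, 9.03% to 23.2% had an unadjusted p under 0.05, and DESeq2 called 1.32% to 7.99%. Of 70 tested mitochondrial ribosomal protein genes, edgeR called none in any of the 6 pairs, with 3 to 9 at an unadjusted p under 0.05, and DESeq2 called 1 in 1 pair (mRpL18, lower in RMCE-2 than in Canton S). The mitochondrial genes also ran low in RMCE-2. Against mir-11 KO their median log2 fold change was -0.12, with 60 of 70 negative. It was -0.09 against RMCE-1, with 57 negative, and -0.05 against Canton S, with 49 negative. Of all 11068 genes, 5603 were negative in RMCE-2 against mir-11 KO, 5799 against RMCE-1 and 5521 against Canton S. By edgeR none of 7 elongation and release factors was called (0 to 2 at an unadjusted p under 0.05), nor any of 26 initiation factors (1 to 7), nor any of 6 ribosome-associated proteins such as Rack1 and bic (0 or 1). DESeq2 called eEF1delta in 1 pair, called 1 initiation factor in each of 4 pairs (eIF3d1 or eIF3l), and called no ribosome-associated protein. Of 31 genes for nucleolar ribosome assembly, 1 rose in RMCE-1 against Canton S (6.06% of all genes called) and 2 fell in RMCE-2 against Canton S (3.6%), and none was called in the other 4 pairs, where 2 to 14 had an unadjusted p under 0.05 and DESeq2 called 0 or 1. The pair with 14 of 31 was RMCE-2 against mir-11 KO (13.2% of all genes), where 29 of the 31 were negative and the median was -0.18. RMCE-2 against RMCE-1 gave 12 of 31 (16.0% of all genes), with 25 negative and a median of -0.14. RMCE-2 against Canton S gave 9 of 31 (19.4% of all genes), with 26 negative and a median of -0.11. Non1, a GTPase known from yeast to act in large-subunit assembly, rose from 293 to 412 CPM in RMCE-1 (log2 fold change 0.49, SE 0.09, adjusted p = 0.0236). Nopp140, a nucleolar protein that binds snoRNA particles, fell by 0.35 on the log2 scale in RMCE-2 (SE 0.06, adjusted p = 0.0233), and Nop56, a core protein of box C/D snoRNA particles, fell by 0.28 (SE 0.06, adjusted p = 0.0484). Of 15 tested genes of the Minute and proteotoxic stress response, crc, the fly ATF4 transcription factor, rose in RMCE-1 against Canton S, from 1155 to 1393 CPM (log2 fold change 0.27, SE 0.06, adjusted p = 0.0496). edgeR called no gene of that list in the other 5 pairs, where 0 to 3 had an unadjusted p under 0.05. DESeq2 called 4 of the list in RMCE-1 against Canton S (Dif, Ilp8, crc and upd3, all higher), against 7.99% of all genes, and 0 or 1 in the other pairs. The calls of Non1, Nopp140, Nop56 and crc were lost in 8, 8, 12 and 14 of 17 alternative settings, among them the fits without Canton S replicate 1 and without Canton S replicate 2.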

How the data were processed

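The authors deposited raw counts of reads per gene, with no normalization, made with tools that the submitters' processing notes list as TopHat2, featureCounts of Subread, CASAVA 1.8.2 and FastQC. Per the labels, libraries were directional, depleted of ribosomal RNA and read as single-end 50 bp reads, and neither a genome build nor an annotation or strand setting for the counting was given in the sources used here. Identifiers were matched to FlyBase symbols for 15001 of 15682 genes, and positions and exon lengths come from Ensembl's annotation of BDGP6.54, which may not be the build that was counted on.

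The quasi-likelihood test of edgeR 4.0.16 (R 4.3.3) was run on the counts: filterByExpr kept 11068 genes and left out 4614, TMM factors ran from 0.971 to 1.04, and the model, with 1 mean for each of the 4 stocks, used all 8 libraries and had 4 residual degrees of freedom. The common biological coefficient of variation was 20.6%. SE is the absolute log2 fold change divided by the square root of F. CPM use TMM-scaled totals. DESeq2 1.42.0 was an alternative. Tested on simulated data, the fit gave its true calls the right sign, and in most pairs more of its calls were false than the nominal share. Depth per library is given in the report, and p-values measure the spread between samples labelled biological replicates.

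Named genes are called members, both copies of duplicated pairs, the stalk genes, sta and sop, the 5 highest and 5 lowest members per kb, the 2 largest rises and falls per pair of stocks at 5 CPM or more, and called members of the other lists. RpL7A, RpS18, RpL23A, genes that DESeq2 alone called and the snoRNA genes were named after their values were seen. Members and lists were chosen with earlier results of these data known. A short list of Myc network genes was dropped because it held a gene of another pathway. Some list genes had no match and were not analysed here. A gene that the rule names is not reported here.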

Additional observations from a re-analysis of the deposited data

How the results depend on the processing

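Results were recomputed under 17 alternative settings, 8 of them leaving out 1 library each, with the lone library of a stock then assumed to vary like the others. No result changed direction while called.

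In mir-11 KO against Canton S the count of called members, 0, became 1 with library totals alone (RpL8), 2 with DESeq2 (RpL4 and RpL8) and 1 with only the 2 stocks compared (RpL22-like). Leaving out libraries gave 0 to 1, the 1 being RpL8 without Canton S replicate 2. In RMCE-1 against Canton S the count of 1 became 0 with no low-count filter, 0 with only the 2 stocks compared, 0 with the replicate block and 0 without the pair of libraries richest in transcripts of other tissues (replicate 1 of Canton S with replicate 2 of RMCE-1). It was 0 to 0 on leaving out libraries 1 at a time. With at least 50 reads in a stock the single called gene was RpL7-like. DESeq2 gave 1 (RpL28) between RMCE-2 and RMCE-1 and 1 (RpL28) over the 4 stocks, where edgeR gave 0. In the other 3 pairs the count stayed at 0 in every setting run.

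The median log2 fold change of the members ranged from 0.0070 to 0.12 in mir-11 KO against Canton S on leaving out libraries, from -0.0039 to 0.12 in RMCE-1 and from -0.056 to 0.050 in RMCE-2. It ran from -0.085 to -0.047 in RMCE-2 against mir-11 KO and from -0.098 to -0.032 in RMCE-2 against RMCE-1. Without that pair of libraries it was 0.021 in mir-11 KO and -0.055 in RMCE-2, both against Canton S. With library totals alone it was -0.071 in RMCE-1 against mir-11 KO and -0.023 in RMCE-2 against RMCE-1, where the same scaling put the median of all genes at -0.069 and 0.033. The cause was not tested.

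Replicate numbers were not used to pair the samples, except in the replicate block setting. Correlations of the replicate differences over genes ran from -0.38 to 0.36. They cannot show whether samples of different stocks were handled together. With the replicate block 0 members were called in every pair. With 2 libraries per stock, differences smaller than the 95% intervals given could not be shown, and genes with few reads were limited by depth.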
